A study of Mus musculus with 4 samples.

Results

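Amino acid transporter genes of the solute carrier families Slc1, Slc3, Slc7, Slc36, Slc38 and Slc43 were followed in mouse lung after bleomycin. They were taken by gene symbol, as all rows of the deposited table with a symbol of these families other than Slc7a11. Earlier results of these data were known when the choice was made. The choice took 40 of 17691 genes. One of the 40, Slc7a6os, is named for lying on the strand opposite Slc7a6 and is not a transporter gene, which left 39 members. Both groups were wild-type C57BL/6 mice, 6 to 8 weeks old. One group had received intranasal bleomycin, which damages DNA and scars the lung, and the other the buffer PBS, and the labels put the treatment at 10 days. There were 4 libraries, 2 per group. The labels do not say that the libraries of a group came from separate mice, so p-values measure only the spread between these libraries, which may be technical. Levels are FPKM, which correct fragment numbers for the length of the transcript and the size of the library, so levels of different genes can be compared.

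Amino acids cross cell membranes mainly through carrier proteins. Glutamate carriers of the Slc1 family are driven by the sodium gradient, and related Slc1 members exchange small neutral amino acids and glutamine. Light chains of the Slc7 family reach the membrane only as dimers with a heavy chain, in most tissues that of Slc3a2, and trade one amino acid for another. Other Slc7 members carry arginine and lysine on their own. Slc36 carriers move small amino acids with protons, partly at the lysosome, and Slc38 carriers move glutamine and other neutral amino acids with sodium. The transcription factor ATF4 is known to switch on several of these genes when amino acids run short, and large neutral amino acids and arginine are signals to the growth kinase mTORC1.

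After bleomycin 4 transporter genes rose and 4 fell. The rises were Slc7a8, Slc7a5 and Slc7a6, all light chains of Slc3a2, and the proton-coupled carrier gene Slc36a1. The falls were Slc7a10, a further light chain, the glutamine exchanger gene Slc1a5, the glutamate carrier gene Slc1a3, and Slc43a3. Changes are on the log2(FPKM + 1) scale, which understates those of low genes, and run from a log2 change of -3.11 ± 0.59 (SE) for Slc7a10 to 1.11 ± 0.14 for Slc7a8. The two-sided limma test took every gene averaging 1 FPKM or more over the libraries and a threshold of 0.05 for the adjusted p. Of the 39 members, 27 reached that level. None of the 27 had a group mean under 1 FPKM. The 4 rises compare with 8.59% of all tested genes called higher, and the 4 falls with 7.69% called lower. Together the 8 calls are 29.6% of the tested members, against 16.3% of all 12986 tested genes. Groups did not overlap for 19 of the 27 members, 10 higher and 9 lower, where 66.5% of all tested genes had groups apart, 31.5% higher and 35.0% lower. An unadjusted p under 0.05 was reached by 15 of the 27, against 35.3% of all tested genes. The median log2 change was -0.05 over the 27 members and -0.02 over all tested genes, and the median absolute change 0.45 against 0.23.

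The calls depend on which libraries are kept. Without either PBS library the spread rests on the bleomycin pair, and limma called no gene of the whole table, member or not. At an unadjusted p under 0.05 it then gave 6 higher and 4 lower without PBS replicate 1, and 5 higher and 4 lower without PBS replicate 2. Over all 12986 genes it gave 1120 higher and 1007 lower, and 1143 and 1059. The fit lacking bleomycin replicate 1 called 8 higher and 10 lower, and the one lacking bleomycin replicate 2 called 8 and 8. In both, the bleomycin group is 1 library and the spread rests on the closer PBS pair, the lone library being assumed to vary like it. Calls rose over all genes too, to 2341 higher and 3144 lower in the first of these fits and 2402 and 1949 in the second. The 8 members called with all 4 libraries were among them both times, and kept their direction without any 1 library. Slc7a1, Slc7a4, Slc7a7, Slc36a2, Slc38a2 and Slc38a5 were gained both times. Slc1a1, Slc3a2, Slc38a1 and Slc38a10 were gained only without bleomycin replicate 1, and Slc7a2 and Slc38a4 only without bleomycin replicate 2.

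**Figure D1:**
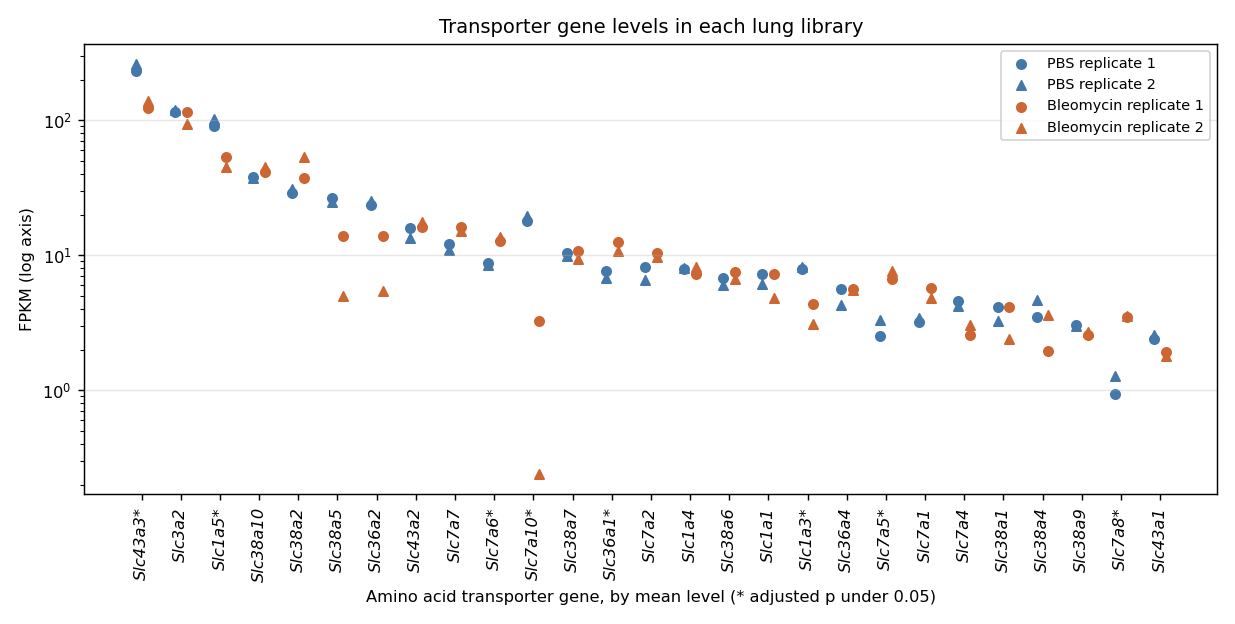
FPKM (log axis) of the 27 transporter genes that were tested, in each library, ordered by mean; circles are replicate 1, triangles replicate 2, blue PBS and orange bleomycin. Slc43a3, Slc3a2 and Slc1a5 stand highest, and Slc7a10 spreads from 18.01 and 19.62 FPKM after PBS to 3.26 and 0.24 after bleomycin.

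**Figure D2:**
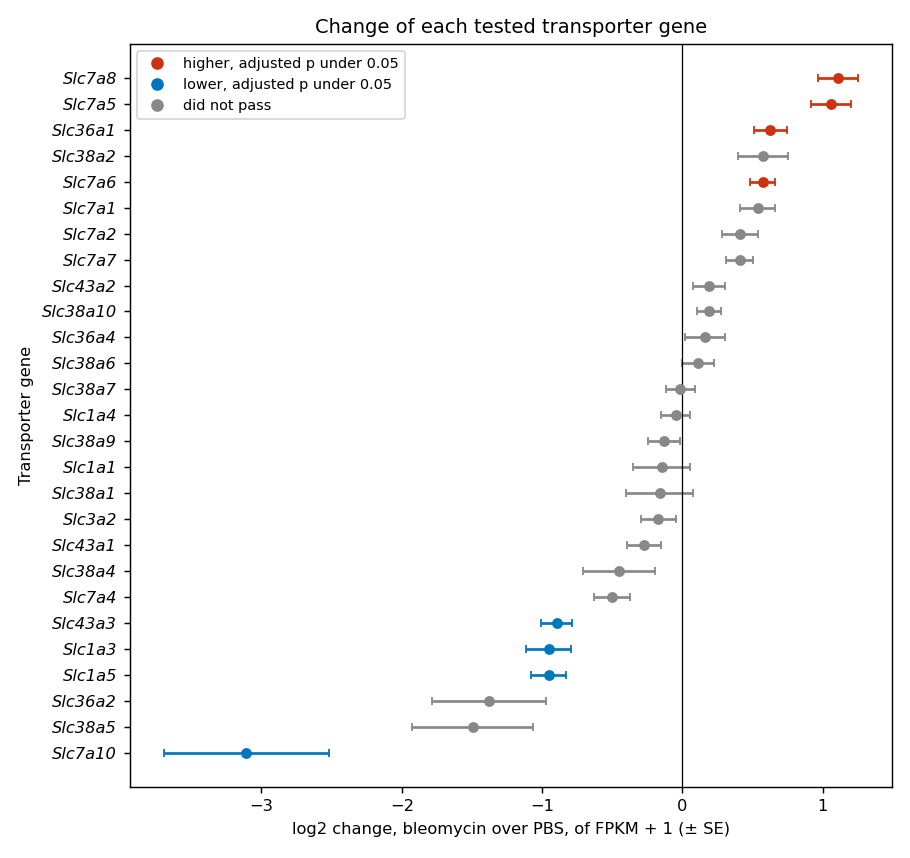
Log2 change of FPKM + 1, bleomycin over PBS, with its standard error for the same 27 genes; red and blue mark adjusted p under 0.05 by limma. Slc36a2 and Slc38a5 have wide errors, 0.40 and 0.43, and did not pass.

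Depth and composition touch all of these values. Depth, estimated from the spacing of low values, was 17000000 to 17800000 fragments per library. The median squared difference within a pair was 2.95 times sampling noise in the PBS pair and 9.58 times in the bleomycin pair. Y-linked Eif2s3y was at 26.43 and 28.86 FPKM after PBS but listed at 0 in each bleomycin library, so the sex of the mice and the treatment cannot be told apart. Marker lists of other cell types moved too. Of 8 resident alveolar fibroblast markers 0 rose and 6 fell, with summed levels of 3364 and 3991 FPKM after PBS and 1354 and 739.6 after bleomycin. Inmt, the most abundant of them, fell from 2328.41 and 2935.96 FPKM to 313.60 and 167.86 FPKM. Of 8 endothelial markers 0 rose and 4 fell, with sums of 2043 and 2164 FPKM against 1404 and 1323, and Ramp2 was the most abundant. Of 10 recruited macrophage markers 8 rose and 0 fell, with sums of 901.5 and 945.8 FPKM against 2887 and 1847. The most abundant, Apoe, did not pass. All 6 proliferation markers rose. Of 5 erythroid markers all 5 fell, from sums of 5184 and 6714 FPKM to 2249 and 1524. Their part in the changes of the transporter genes was not tested. In whole lung, fewer cells of a type and less RNA per cell cannot be told apart.

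By group mean, the order of the chosen light chain genes of Slc3a2 changed only through Slc7a10. Slc7a10 (gene 53896, GRCm38.p6 chromosome 7, 35186095 to 35201116) encodes a carrier of small neutral amino acids such as serine, glycine and alanine. Of the 5 chosen light chain genes, it was the most abundant in each PBS library and the least abundant in each bleomycin library. Its level was 18.01 and 19.62 FPKM in the PBS libraries and 3.26 and 0.24 FPKM in the bleomycin libraries. Both bleomycin libraries lay far below both PBS libraries, and also far from each other. The fall was 10.8-fold between group means, with a log2 change of -3.11 ± 0.59 (adjusted p = 0.0324 by limma). It was -2.22 without bleomycin replicate 2 and -4.00 without bleomycin replicate 1. The call is lost with a pseudocount of 0.1 (adjusted p = 0.0673) and with no filter on low genes (adjusted p = 0.0705). With its transcript length and the estimated depth, the value in bleomycin replicate 2 is about 8 fragments, against about 598 and 657 in the PBS libraries. Exons of Slc7a10 overlap those of Lrp3 on the opposite strand, and since stranded counting is not given in the sources used here, their fragments may be mixed. Lrp3 itself was at 4.57 and 3.97 FPKM after PBS and 3.64 and 2.32 FPKM after bleomycin.

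Slc7a5 (gene 20539, chromosome 8, 121881146 to 121907686) encodes LAT1, the exchanger that brings leucine, phenylalanine and other large neutral amino acids into growing cells. It was at 2.54 and 3.31 FPKM after PBS and 6.71 and 7.59 FPKM after bleomycin, so the groups lay apart by more than either pair differed. The rise was 2.44-fold, with a log2 change of 1.06 ± 0.14 (adjusted p = 0.0171 by limma). Slc7a8 (gene 50934, chromosome 14, 54722215 to 54781886) encodes LAT2, a close relative that also takes small neutral amino acids. Its levels were 0.94 and 1.28 FPKM after PBS and 3.52 and 3.55 FPKM after bleomycin. This was the largest rise among the tested members, 3.18-fold, with a log2 change of 1.11 ± 0.14 (adjusted p = 0.0147). Slc7a6 (gene 330836, chromosome 8, 106168219 to 106198714), whose product y+LAT2 exchanges arginine for glutamine, stood at 8.72 and 8.43 FPKM after PBS and 12.80 and 13.68 FPKM after bleomycin. Its log2 change was 0.57 ± 0.09 (adjusted p = 0.0221). Slc7a7, the gene of the related y+LAT1, gave 12.22 and 10.96 FPKM after PBS and 16.20 and 15.19 FPKM after bleomycin. The groups do not overlap, but the gene did not pass (log2 change 0.41 ± 0.10, adjusted p = 0.0544). Exons of Slc7a7 overlap Oxa1l on the opposite strand.

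Slc7a11, also a light chain of Slc3a2, lies outside the chosen genes, so sums, shares and ratios of light chains given here lack it. The heavy chain gene Slc3a2 did not pass. It was at 115.79 and 119.96 FPKM after PBS and 116.00 and 94.20 FPKM after bleomycin, and the groups overlapped (log2 change -0.17 ± 0.12, adjusted p = 0.378). At the RNA level it exceeded the sum of the 5 light chain genes in every library. That sum was 42.43 and 43.60 FPKM after PBS and 42.49 and 40.25 FPKM after bleomycin, 0.366 and 0.363 of the Slc3a2 level after PBS and 0.366 and 0.427 after bleomycin. What differed was its make-up. Slc7a10 gave 42.4% and 45.0% of the light chain sum after PBS, and 7.67% and 0.596% after bleomycin. Slc7a5 went from 5.99% and 7.59% to 15.8% and 18.9% of it, and Slc7a8 from 2.22% and 2.94% to 8.28% and 8.82%. Without Slc7a10, the other 4 light chain genes summed to 24.42 and 23.98 FPKM after PBS and 39.23 and 40.01 FPKM after bleomycin. Shares of the sum were computed after the values were seen and carry no test.

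**Figure D3:**
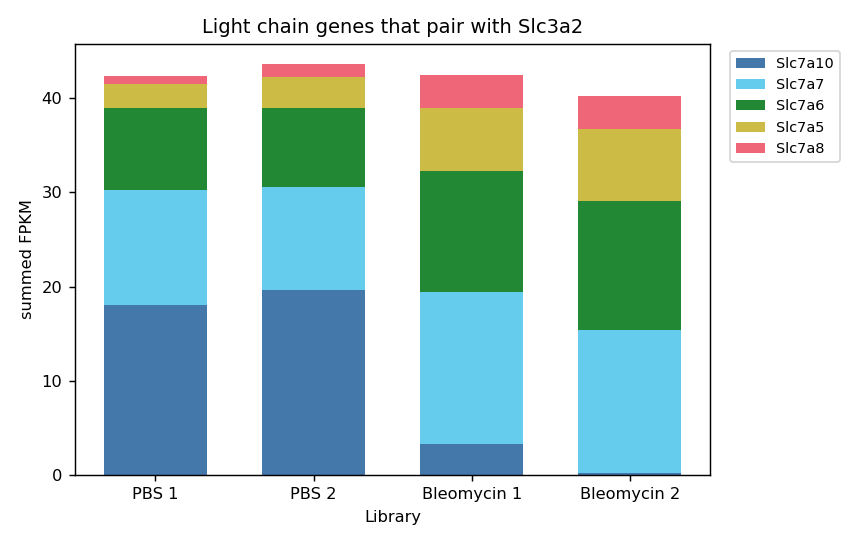
Summed FPKM of the 5 chosen light chain genes that pair with Slc3a2 (Slc7a11 is not among them), stacked by gene, in each of the 4 libraries. The total stays between 40.25 and 43.60 FPKM while the Slc7a10 part shrinks from 18.01 and 19.62 to 3.26 and 0.24 FPKM.

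Of the 8 called members, 5 have an entry among RefSeq promoters (GRCm38.p6), as do 29 of the 39 members. Shown are 3 members that rose and Slc7a10, which fell the most, each from 250 bases before to 50 bases after a transcription start, 5′ to 3′ on the gene's strand. Capitals mark matches, on either strand, to TGATGNAA (bound by ATF4 with C/EBP factors), to the E-box CACGTG (bound by Myc and the TFE factors) or to TGACNNNGC, the core of the antioxidant response element. The windows are chr11:55204090-55204389 for Slc36a1 (plus strand), chr8:106168604-106168903 for Slc7a6 (plus strand, the first of its listed starts), chr14:54781837-54782136 for Slc7a8 (minus strand) and chr7:35186135-35186434 for Slc7a10 (plus strand).
Slc36a1: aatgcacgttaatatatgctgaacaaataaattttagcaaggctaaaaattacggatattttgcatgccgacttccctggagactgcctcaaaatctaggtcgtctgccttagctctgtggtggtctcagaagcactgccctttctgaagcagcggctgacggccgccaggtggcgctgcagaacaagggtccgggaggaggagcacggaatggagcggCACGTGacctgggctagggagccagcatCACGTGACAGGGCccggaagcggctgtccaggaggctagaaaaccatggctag
Slc7a6: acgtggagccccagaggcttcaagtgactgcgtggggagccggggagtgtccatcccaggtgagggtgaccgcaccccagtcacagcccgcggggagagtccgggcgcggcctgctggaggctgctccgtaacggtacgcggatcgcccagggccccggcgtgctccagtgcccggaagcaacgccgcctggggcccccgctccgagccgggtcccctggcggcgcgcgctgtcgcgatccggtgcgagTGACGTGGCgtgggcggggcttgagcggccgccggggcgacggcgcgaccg
Slc7a8: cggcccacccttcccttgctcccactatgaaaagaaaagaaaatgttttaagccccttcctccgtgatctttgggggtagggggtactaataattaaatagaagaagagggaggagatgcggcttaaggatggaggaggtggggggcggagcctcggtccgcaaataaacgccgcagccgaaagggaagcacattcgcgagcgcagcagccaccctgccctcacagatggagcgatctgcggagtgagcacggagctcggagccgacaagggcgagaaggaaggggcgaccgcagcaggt
Slc7a10: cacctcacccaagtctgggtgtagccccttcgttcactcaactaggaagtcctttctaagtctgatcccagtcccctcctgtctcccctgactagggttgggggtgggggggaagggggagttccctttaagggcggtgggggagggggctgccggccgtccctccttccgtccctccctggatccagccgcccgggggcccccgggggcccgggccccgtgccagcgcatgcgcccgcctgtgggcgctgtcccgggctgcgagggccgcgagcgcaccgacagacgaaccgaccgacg

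Slc36a1 holds 2 E-boxes, at bases 220 to 225 and 248 to 253 of its window, the second overlapping a TGACNNNGC match at 252 to 260. Slc7a6 has a TGACNNNGC match at 250 to 258, and the Slc7a8 and Slc7a10 windows hold none of the motifs. The Slc7a6 and Slc7a10 windows lie within the gene spans given above, so the sequence before those spans is not shown. Over all 32851 RefSeq promoter windows, 3.97% hold TGATGNAA, 7.15% CACGTG and 12.4% TGACNNNGC. Of the 29 members with a window, 2 hold the first (Slc1a4 and Slc7a7), 7 the second and 5 the third. These counts are per member and the shares per window, and a gene can have multiple listed starts, so they cannot be compared directly. A match is only a run of letters, and none of these data measured binding.

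In the Slc7 group of arginine and lysine carriers and their relatives, none of the 3 tested genes passed. Slc7a1, the widespread arginine carrier CAT1, was at 3.19 and 3.43 FPKM after PBS and 5.73 and 4.81 FPKM after bleomycin. The groups lay apart, but at an adjusted p of 0.0524 by limma the gene missed the threshold (log2 change 0.54 ± 0.13). Slc7a2, which supplies arginine to macrophages and other cells, gave 8.18 and 6.59 FPKM after PBS and 10.48 and 9.74 FPKM after bleomycin (0.41 ± 0.13, adjusted p = 0.0957). Slc7a4 went the other way, at 4.62 and 4.18 FPKM after PBS and 2.57 and 3.07 FPKM after bleomycin (-0.50 ± 0.13, adjusted p = 0.0627). Its exons overlap P2rx6 on the opposite strand. Slc7a14 had the highest mean over the 4 libraries of the members under the filter, at 1.01 and 0.90 FPKM after PBS and 0.96 and 0.80 FPKM after bleomycin. Slc7a3, an arginine carrier known mainly from brain, was between 0.30 and 0.65 FPKM in the 4 libraries.

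In the Slc1 family both called genes fell. Slc1a5 (gene 20514, chromosome 7, 16781334 to 16798274) encodes ASCT2, which exchanges glutamine and other neutral amino acids and made up most of the family's RNA. It was at 90.39 and 101.90 FPKM after PBS and 53.60 and 44.93 FPKM after bleomycin. The groups lay well apart, with a 1.95-fold fall and a log2 change of -0.95 ± 0.12 (adjusted p = 0.0151 by limma). Its share of the family's summed FPKM was 78.9% and 81.6% after PBS and 73.2% and 72.7% after bleomycin. Slc1a3 (gene 20512, chromosome 15, 8634124 to 8710807), the gene of the glutamate and aspartate carrier GLAST, went from 7.98 and 8.14 FPKM to 4.36 and 3.09 FPKM. The fall was 2.16-fold between group means, with a log2 change of -0.95 ± 0.16 (adjusted p = 0.0249 by limma). With no filter on low genes the call is lost (adjusted p = 0.0556). Slc1a4, which encodes the alanine, serine and cysteine exchanger ASCT1, was at 7.97 and 8.01 FPKM after PBS and 7.22 and 8.19 FPKM after bleomycin. The glutamate carrier gene Slc1a1 was at 7.33 and 6.09 FPKM after PBS and 7.26 and 4.83 FPKM after bleomycin. Neither passed, and the groups overlapped for both.

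The other 3 Slc1 genes lay under 1 FPKM. Slc1a2, the main glutamate carrier gene of astrocytes, was at 0.38 and 0.36 FPKM after PBS and 0.08 and 0.11 FPKM after bleomycin, or about 34, 32, 7 and 10 fragments. Its groups do not overlap, and with no filter on low genes it passed (log2 change -0.32, adjusted p = 0.0322 by limma), on a scale that compresses such levels. Its exons overlap Gm13872 on the opposite strand. Slc1a6 and Slc1a7, known from the cerebellum and the retina, were between 0.08 and 0.44 FPKM.

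The Slc36 family parted. Slc36a1 (gene 215335, chromosome 11, 55204322 to 55236330) encodes PAT1, which carries small amino acids together with protons and is found on lysosomes. It was at 7.61 and 6.74 FPKM after PBS and 12.52 and 10.77 FPKM after bleomycin, with no overlap. It rose 1.62-fold, with a log2 change of 0.63 ± 0.12 (adjusted p = 0.0326 by limma), a call lost with no filter (adjusted p = 0.0625). Slc36a2, the gene of PAT2, which carries glycine, alanine and proline, was at 23.58 and 25.32 FPKM after PBS and 13.92 and 5.42 FPKM after bleomycin. Both bleomycin libraries were below both PBS libraries, but they differed so much that the gene did not pass (log2 change -1.38 ± 0.40, adjusted p = 0.0849). Slc36a4 was at 5.61 and 4.26 FPKM after PBS and 5.67 and 5.53 FPKM after bleomycin and did not pass. Slc36a3 was listed at 0 in 1 library of each group and at 0.16 FPKM in the other.

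With PBS, Slc36a2 made up 64.1% and 69.4% of the Slc36 sum and Slc36a1 20.7% and 18.5%. With bleomycin the shares of Slc36a2 were 43.1% and 25.0%, and those of Slc36a1 38.8% and 49.6%. In bleomycin replicate 2 Slc36a1 was thus the more abundant of the pair.

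Slc7a10, Slc36a2 and Slc38a5 shared a pattern over the libraries that was noticed after their values were seen. Each was steady in the PBS pair, lower in bleomycin replicate 1 and lowest in bleomycin replicate 2. The order is not particular to them. Among the other tested members Slc1a3, Slc1a5 and Slc43a1 had it too, with bleomycin libraries closer together, at 4.36 and 3.09, 53.60 and 44.93, and 1.93 and 1.81 FPKM. Of all tested genes, 35.0% had both bleomycin libraries below both PBS libraries, and the share with this order was not computed. Slc38a5 encodes the glutamine, histidine and asparagine carrier SNAT5 and lies on chromosome X. It was at 26.38 and 25.00 FPKM after PBS and 13.88 and 5.03 FPKM after bleomycin. It did not pass with all 4 libraries (log2 change -1.49 ± 0.43, adjusted p = 0.0817 by limma). Its log2 change was -2.15 without bleomycin replicate 1 and -0.84 without bleomycin replicate 2, and that of Slc36a2 was -1.99 and -0.77. Both genes passed in these fits, which leave out the bleomycin spread that had set their errors. Some marker sums were also below both PBS libraries in bleomycin replicate 1 and lower still in bleomycin replicate 2. These were the sums of resident fibroblast, endothelial, ciliated, neutrophil, hepatocyte, erythroid and neuron markers. No other marker list had a sum of this order, and that of activated fibroblast markers rose. The neuron sum was mostly Stmn2, at 33.99 and 35.53 FPKM after PBS and 25.40 and 14.74 FPKM after bleomycin. Of the 3 neuron markers tested, 1 rose (Tubb3) and 0 fell. Slc7a10 and Slc36a2 are also known as surface proteins of adipocytes. Of the 8 adipocyte markers, the most abundant, Lipe, was at 11.76 and 13.46 FPKM after PBS and 21.83 and 12.96 FPKM after bleomycin, Adipoq was at 0.70 and 1.10 FPKM after PBS and 0.14 and 0.05 FPKM after bleomycin, and Lep and Ucp1 were at or near 0. Cidec, also on that list, fell from 7.87 and 9.20 FPKM to 2.87 and 2.78 FPKM (log2 change -1.31 ± 0.12, adjusted p = 0.00833). Of the 2 adipocyte markers that could be tested 0 rose and 1 fell, and the sums were 21.72 and 25.53 FPKM after PBS and 25.68 and 16.43 FPKM after bleomycin. The part of any of these cell types in the 3 genes was not tested.

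None of the 8 tested Slc38 genes passed, although the family's most abundant members were well above the filter. Slc38a2 encodes SNAT2, the sodium-coupled carrier that cells are known to induce when amino acids are scarce. It was at 29.04 and 30.72 FPKM after PBS and 37.67 and 53.55 FPKM after bleomycin, without overlap (log2 change 0.57 ± 0.18, adjusted p = 0.0957 by limma). Slc38a10 was at 38.27 and 37.27 FPKM after PBS and 41.35 and 45.13 FPKM after bleomycin (0.19 ± 0.08, adjusted p = 0.187). Lysosomal members, the glutamine carrier gene Slc38a7 and the arginine sensor gene Slc38a9, had log2 changes of -0.02 ± 0.10 and -0.13 ± 0.11. Slc38a1, the gene of the glutamine carrier SNAT1, was at 4.17 and 3.26 FPKM after PBS and 4.17 and 2.41 FPKM after bleomycin. Slc38a4 was at 3.52 and 4.69 FPKM after PBS and 1.97 and 3.62 FPKM after bleomycin, and Slc38a6 had a log2 change of 0.11 ± 0.11. The family's summed level was 123.04 and 121.03 FPKM after PBS and 120.17 and 128.85 FPKM after bleomycin.

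Slc38a3, the glutamine carrier SNAT3 of liver, kidney and brain, was the only member under the filter with a group mean of at least 1 FPKM. It was at 1.26 and 1.06 FPKM after PBS and 0.13 and 0.18 FPKM after bleomycin, about 54, 45, 6 and 8 fragments. With no filter it passed (log2 change -0.90, adjusted p = 0.0228 by limma). All 10 hepatocyte markers fell in the same libraries, their sums going from 119.8 and 116.4 FPKM to 12.31 and 8.35 FPKM, with Apoa2, the most abundant, at 25.73 and 25.97 FPKM after PBS and 2.47 and 3 FPKM after bleomycin. The part of liver RNA in the values of Slc38a3 was not tested. Slc38a11 stayed between 0.07 and 0.21 FPKM, and Slc38a8 was listed at 0 after PBS and at 0.02 and 0.06 FPKM after bleomycin.

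Slc43a3 (gene 58207, chromosome 2, 84936545 to 84958509) had the highest level of all members in every library. Although it carries the family name of the leucine carriers, its product is known to move purine bases rather than amino acids. It was at 230.85 and 259.12 FPKM after PBS and 123.69 and 138.57 FPKM after bleomycin. The lowest PBS value exceeded the highest bleomycin value by far, the fall was 1.87-fold, and the log2 change was -0.90 ± 0.11 (adjusted p = 0.0141 by limma). The endothelial and resident alveolar fibroblast marker sums fell in the same libraries, as given above. That of activated fibroblast markers rose from 527.5 and 486.2 FPKM to 1104 and 1250 FPKM, with 5 of 6 markers called higher and 0 lower. Their part in the change of Slc43a3 was not tested. Slc43a1 and Slc43a2, which encode the facilitative carriers LAT3 and LAT4 for large neutral amino acids, did not pass. Slc43a1 was at 2.39 and 2.56 FPKM after PBS and 1.93 and 1.81 FPKM after bleomycin, and Slc43a2 at 15.96 and 13.53 FPKM after PBS and 16.12 and 17.73 FPKM after bleomycin.

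The remaining members were close to absent. Slc3a1, the heavy chain that the kidney uses, was between 0.13 and 0.24 FPKM, and Slc7a13, which pairs with it there, between 0.03 and 0.10 FPKM. Slc7a15 was at 0.21 and 0.15 FPKM after PBS and 0.07 and 0.03 FPKM after bleomycin, or at most about 6 fragments. In all, 12 members had a mean under 1 FPKM. Slc7a6os, the gene set aside, was at 15.00 and 16.04 FPKM after PBS and 16.85 and 14.29 FPKM after bleomycin, while its neighbour Slc7a6 rose, and no exons of the pair overlap.

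The summed level of all 39 members was 699.58 and 737.33 FPKM after PBS and 546.36 and 524.29 FPKM after bleomycin. Slc43a3 and Slc1a5 had the largest part in that difference, with group means of 245.0 and 96.2 FPKM after PBS and 131.1 and 49.3 FPKM after bleomycin. By group mean, Slc43a3, Slc3a2 and Slc1a5 held the first 3 places in both groups, while Slc7a10 went from place 8 to place 27 and Slc7a5 from place 25 to place 15.

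Genes around the carriers moved in both directions. In a list of amino acid carriers outside the 6 families, 2 of 9 tested genes rose and 0 fell. They were Slc6a14, a broad carrier for neutral and cationic amino acids, at 28.00 and 25.21 FPKM after PBS and 37.12 and 45.41 FPKM after bleomycin, and the lysosomal cationic carrier Slc66a1 (listed as Pqlc2), at 4.31 and 4.33 FPKM after PBS and 7.06 and 7.53 FPKM after bleomycin. Their log2 changes were 0.61 ± 0.13 (adjusted p = 0.0403 by limma) and 0.64 ± 0.10 (adjusted p = 0.0214). Among 10 mitochondrial carriers, the aspartate and glutamate carrier gene Slc25a13 rose (0.57 ± 0.12), and Slc25a29 and Slc25a38, carriers of basic amino acids and of glycine, fell (-0.79 ± 0.13 and -0.42 ± 0.08).

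Of 21 tested genes of the amino acid response, in which the kinase GCN2 and the factor ATF4 answer to amino acid shortage, 5 rose, 2 fell and 14 did not pass. The rises were the mitochondrial folate enzyme gene Mthfd2 (1.45 ± 0.14), the serine synthesis gene Psat1 (1.28 ± 0.13), the proline synthesis gene Aldh18a1 (1.20 ± 0.11), Sesn2 (0.61 ± 0.13) and the stress gene Nupr1 (0.55 ± 0.09). Atf5 and Ddit3, which encode stress transcription factors, fell (-0.64 ± 0.10 and -0.58 ± 0.09). Atf4 itself was at 109.85 and 127.77 FPKM after PBS and 130.29 and 119.33 FPKM after bleomycin. The asparagine synthetase gene Asns was at 12.60 and 13.76 FPKM after PBS and 14.41 and 13.62 FPKM after bleomycin, and Chac1, a glutathione-degrading ATF4 target, at 4.34 and 4.39 FPKM after PBS and 2.60 and 3.38 FPKM after bleomycin. None of these 3 passed. The list's median log2 change was 0.23, against -0.02 over all tested genes.

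Among 24 genes of amino acid sensing at the lysosome 2 rose, 2 fell and 20 did not pass. Sesn1, a leucine-sensing relative of Sesn2, went from 22.27 and 20.72 FPKM to 11.80 and 9.23 FPKM (log2 change -0.97 ± 0.14, adjusted p = 0.0175 by limma), while Sesn3 rose from 1.86 and 1.29 FPKM to 3.51 and 3.45 FPKM (0.81 ± 0.16, adjusted p = 0.0340). Tfe3, a lysosomal gene activator, rose (0.37 ± 0.08) and Flcn, a regulator of that activator, fell (-0.42 ± 0.09). Mtor was at 7.28 and 6.70 FPKM after PBS and 6.05 and 6.76 FPKM after bleomycin.

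Of 27 enzyme genes that use the transported amino acids, 3 rose and 3 fell. Arginine is the substrate of both arginase, Arg1 (2.21 ± 0.21), and nitric oxide synthase, Nos2 (1.25 ± 0.13), which rose. Got1, an aspartate aminotransferase gene, rose too (0.62 ± 0.09). Glul, which makes glutamine, fell from 248.92 and 231.66 FPKM to 136.86 and 101.72 FPKM (-1.02 ± 0.16). Prodh, which degrades proline, and Bckdha, of branched-chain amino acid breakdown, fell (-0.84 ± 0.14 and -0.54 ± 0.10). Over the 5 lists 22 of 91 tested genes passed, against the 16.3% of all genes given above.

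**Figure D4:**
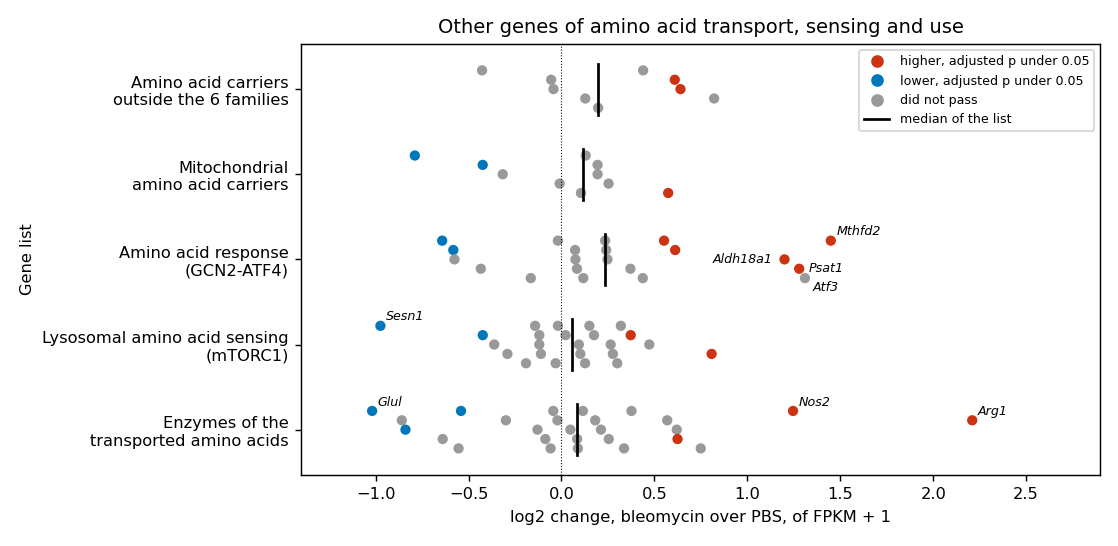
Log2 change of FPKM + 1, bleomycin over PBS, of each tested gene in 5 lists around amino acid transport; the black bar is the list's median, and red and blue mark adjusted p under 0.05 by limma. Arg1, Mthfd2, Psat1 and Nos2 lie farthest to the right among called genes, Glul and Sesn1 farthest to the left.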

How the data were processed

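The authors deposited 1 table of FPKM values with 2 decimals, per the file headers. The submitters' processing notes list Bowtie2, HISAT, mm10 and GRCm38. Quantification tool, versions and strandedness: not given in the sources used here. Of 17692 rows, 1 without a name was left out (at most 0.0009% of a library's sum) and 27 symbols turned into dates were restored through RefSeq accessions. The log2(FPKM + 1) values of 12986 genes averaging 1 FPKM or more went into limma 3.58.1 (R 4.3.3, eBayes with trend, 2 residual and 2.76 prior degrees of freedom), with Benjamini-Hochberg adjustment. The fit was tested on simulated data with the same spread in both groups. The median standard deviation of the data was 0.064 in the PBS pair and 0.115 in the bleomycin pair, and the simulation did not cover such a difference. Depth was estimated from genes with 1 transcript of 300 to 1000 bases, where 75.0% to 78.1% of low values were whole fragments to within 0.15. No count model was run, since FPKM values are not counts. Scgb1a1 took 3.98% to 11.2% of a library's summed FPKM, which moves all other values. Members and lists were chosen with earlier results of these data known. Every member is named. Called members, those with an absolute log2 change of at least 1 and the 5 highest get each library's value, other lists up to 6 called genes, and marker lists the most abundant. For the amino acid response all called genes are named, which is more than 6. Other genes were picked after their values were seen, as were the shares. Promoters are RefSeq's and exon overlaps GENCODE M21's. Besides the members named above with such an overlap, exons of Slc1a1, Slc3a1, Slc7a2, Slc38a9, Slc38a10 and Slc43a2 overlap genes on the opposite strand. Alternatives were other pseudocounts, filters, scalings and variance models, a block for replicate number and omission of each library.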

Additional observations from a re-analysis of the deposited data

How the results depend on the processing

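The 8 called transporter genes kept their direction in every alternative that tested them. They kept their calls with a pseudocount of 0.5, quantile normalization, TPM rescaling, upper quartile scaling, no trend and a robust fit. With a pseudocount of 0.1 Slc7a10 was lost, and with no filter Slc7a10, Slc1a3 and Slc36a1 were, while Slc1a2 and Slc38a3 passed. A filter at 5 FPKM left 20 members, of which 7 passed, and did not test Slc7a8. Slc7a1 passed under the 3 scalings and without trend, and Slc7a7 under the 3 scalings, of which TPM moved the share of higher calls over all genes from 52.8% to 61.9%. Leaving out each library gave 0 to 5485 called genes (0 to 2402 higher, 0 to 3144 lower), 0 to 8 transporter genes higher and 0 to 10 lower, and 0 to 45 genes of the 5 lists. The zeros are those without a PBS library, where 2127 and 2202 genes had an unadjusted p under 0.05. No filter gave 14 list genes in place of 22. Direction turned for members near 0. Slc38a7 had 0.0050 with quantile normalization and 0.0495 with TPM, and Slc1a4 had 0.0127 with TPM. Leaving out each library gave -0.099 to 0.069 for Slc38a7, -0.129 to 0.032 for Slc1a4, -0.40 to 0.10 for Slc1a1, -0.46 to 0.14 for Slc38a1 and -0.0023 to 0.33 for Slc36a4. The causes were not tested. Replicate numbers are not known to pair the libraries, and the deviations of same-numbered libraries had a correlation of 0.02 over genes. With a replicate block 8 transporter genes passed, 4 each way, 16 list genes did, and 842 genes were higher and 799 lower, 1641 in all. With 2 libraries per group and low counts of fragments, values under 1 FPKM are least precise.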
